A study of Mus musculus with 20 samples.

Results

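Sox8, Sox9 and Sox10 form the SoxE group of transcription factors, and their loci were described in cells of the Nkx2.1 lineage with and without Tcf4. The members were found by name: every consensus ATAC region that the authors assigned to one of the 3 genes or that lay within 300 kb of its gene body, the peaks of every library there, and the motifs named for these genes. This gave 81 of the 32120 consensus regions, with 34 at Sox8, 8 at Sox9 and 39 at Sox10, and 5 of 1205 motifs. Sorted GFP-positive cells came from the neocortex of pups at postnatal day 7 or 8. Day 7 is named for the ATAC-seq footprints and, in the paper, for the H3K4me1 Cut&Tag. WT cells carried Nkx2.1-Cre with the Ai3 reporter, and Tcf4 cKO cells carried in addition the floxed Tcf4 allele on both chromosomes (Tcf4 f/f; Nkx2.1-Cre). ATAC-seq and Cut&Tag for H3K4me1, H3K27ac and H3K27me3 each had 2 libraries per genotype of 50000 cells. Tcf4 occupancy was measured with anti-Flag Cut&Tag in the Tcf4-tag line, with 2 libraries of 200000 nuclei, and in this line an HA and Flag tag joins the end of the endogenous protein after Nkx2.1-Cre recombination. Cre under Nkx2.1 marks the lineage and not a cell type, so the sorted cells hold interneurons and glia together, and the single-cell RNA samples of the series were not analysed here.

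SoxE proteins bind DNA through an HMG box and often act as dimers. Sox9 is needed when neural stem cells switch to making glia and is kept by astrocytes. Sox10 marks cells of the oligodendrocyte lineage from their precursors onward and drives myelin genes, and Sox8 is expressed in the same lineage and overlaps with Sox10 in function. Tcf4 is an E protein, a basic helix-loop-helix factor that binds E-box motifs alone or with partners such as Olig2. In a mixed population, fewer cells of a type and a weaker signal per cell cannot be told apart.

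On GRCm38 (mm10), Sox9 spans chr11:112782224-112787760 on the plus strand, Sox10 chr15:79154908-79165240 on the minus strand and Sox8 chr17:25565892-25570686 on the minus strand. The Sox9 start was the only protein-coding start within 300 kb of its body, whereas 32 such starts lay in the Sox8 window and 25 in the Sox10 window. Most regions near Sox8 and Sox10 thus lay closer to other genes. The authors' annotation assigned 4 regions to Sox8, 1 to Sox9 and none to Sox10, since the region over the Sox10 start was assigned to the overlapping gene Gm10863.

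The sequences of the 7 regions with the largest differences between genotypes are shown because the comparisons below turn on them. Each is 200 bases of the plus strand around the strongest ATAC summit of the more accessible genotype, from GRCm38. Capitals mark CAGCTG, an E-box core, TTGGCA, a core of the NFI site, and the SOX cores ACAAAG and ACAATG, each read on both strands.
Sox9, 280.3 kb upstream (chr11:112501953-112502152): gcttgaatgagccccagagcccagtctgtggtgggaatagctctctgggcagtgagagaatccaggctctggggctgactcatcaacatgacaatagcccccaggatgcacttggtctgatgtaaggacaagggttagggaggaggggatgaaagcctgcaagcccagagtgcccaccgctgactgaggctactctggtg
Sox9, 201.2 kb downstream (chr11:112983319-112983518): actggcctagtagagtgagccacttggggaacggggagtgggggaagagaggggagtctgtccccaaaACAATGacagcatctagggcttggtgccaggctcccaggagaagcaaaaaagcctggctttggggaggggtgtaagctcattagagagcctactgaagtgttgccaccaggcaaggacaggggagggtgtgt
Sox9, 207.0 kb downstream (chr11:112989022-112989221): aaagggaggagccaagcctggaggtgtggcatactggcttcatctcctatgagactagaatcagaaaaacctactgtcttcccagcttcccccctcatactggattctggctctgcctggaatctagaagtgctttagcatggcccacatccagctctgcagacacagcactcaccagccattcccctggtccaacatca
Sox10, 158.3 kb downstream (chr15:79006743-79006942): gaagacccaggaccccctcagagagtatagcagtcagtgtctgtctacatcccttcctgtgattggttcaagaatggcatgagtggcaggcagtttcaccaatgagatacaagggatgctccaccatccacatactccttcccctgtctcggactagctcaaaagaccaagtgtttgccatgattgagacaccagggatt
Sox10, 61.8 kb downstream (chr15:79103374-79103573): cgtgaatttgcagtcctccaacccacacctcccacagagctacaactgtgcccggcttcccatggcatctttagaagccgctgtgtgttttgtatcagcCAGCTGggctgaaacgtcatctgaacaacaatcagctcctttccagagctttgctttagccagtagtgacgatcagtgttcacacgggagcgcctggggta
Sox8, 8.9 kb downstream (chr17:25561648-25561847): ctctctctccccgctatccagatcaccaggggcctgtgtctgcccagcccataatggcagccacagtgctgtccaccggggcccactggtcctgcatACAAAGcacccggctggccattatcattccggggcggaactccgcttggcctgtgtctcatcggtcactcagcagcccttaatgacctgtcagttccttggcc
Sox8, 195.5 kb upstream (chr17:25766110-25766309): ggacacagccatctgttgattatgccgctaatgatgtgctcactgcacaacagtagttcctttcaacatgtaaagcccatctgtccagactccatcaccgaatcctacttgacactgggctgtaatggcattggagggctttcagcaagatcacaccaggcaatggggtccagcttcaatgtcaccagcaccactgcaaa
The E-box core CAGCTG occurred only in the window 61.8 kb downstream of Sox10 among these 7, against 16.5% of the 200-base windows around the centres of all 32120 consensus regions. A SOX core occurred in the windows 201.2 kb downstream of Sox9 and 8.9 kb downstream of Sox8, against 24.6% of all windows. No TTGGCA was found in these 7 windows, and 11.6% of all windows held it. The general E-box form CANNTG, which includes CAGCTG and is not capitalised, was found in 58.6% of all windows. Among these 7 windows it was missing only from those 207.0 kb downstream of Sox9 and 8.9 kb downstream of Sox8. The 7 windows are centred on summits and the others on region centres, so the shares are not strictly comparable. Over whole regions CAGCTG occurred in 42 of the 81 SoxE regions (51.9%, Wilson 95% interval 41.1 to 62.4%) and in 50.9% of all regions. The SOX cores occurred in 47 of 81 (58.0%, 47.2 to 68.2%) and in 68.2% of all, and TTGGCA in 28 of 81 (34.6%, 25.1 to 45.4%) and in 41.8% of all.

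**Figure D1:**
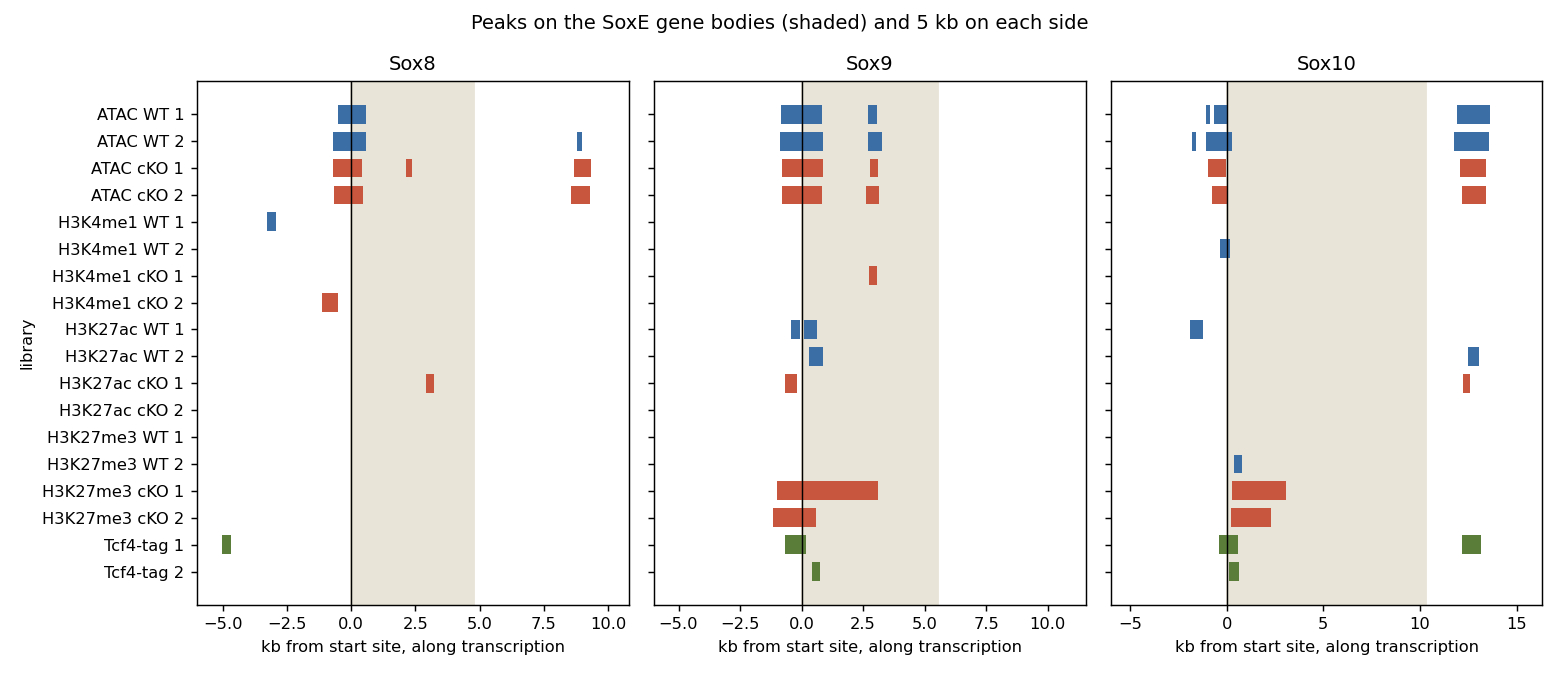
Peaks of each library on the SoxE gene bodies and 5 kb on each side, plotted by kb from the start site along transcription. Blue bars are WT, red bars Tcf4 cKO and green bars Tcf4-tag peaks, and the gene body is shaded. H3K27me3 covers the Sox9 start in the 2 Tcf4 cKO libraries and in no WT library.

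All 3 start sites were accessible in every ATAC library. For each peak the authors give a fold enrichment over the local background of the same library, and the strongest peak stands for the region. At the Sox9 promoter (chr11:112781365-112783106) the fold enrichment was 5.60 and 5.0 in WT replicates 1 and 2 and 4.76 and 5.03 in Tcf4 cKO replicates 1 and 2. At the Sox8 promoter (chr17:25570109-25571388) it was 5.96 and 5.31 in WT and 4.63 and 6.18 in Tcf4 cKO. At the Sox10 start (chr15:79165205-79166227), named here because it covers the start, it was 3.78 and 3.54 in WT and 3.58 and 3.65 in Tcf4 cKO. The WT and Tcf4 cKO values overlapped at Sox8, Sox9 and Sox10. The median peak of a library had 5.78 to 5.93, so the Sox10 start was low on this measure and the Sox9 start lay below the median as well.
The authors' mean log2 normalized reads per genotype, a second measure without values per library, were 9.19 in WT and 8.69 in Tcf4 cKO at Sox9. They were 8.47 and 8.25 at Sox8 and 8.18 and 7.76 at Sox10. These are reads per region and not per base, and the start regions span 1742 bp at Sox9, 1280 bp at Sox8 and 1023 bp at Sox10. The median region had means of 7.07 in WT and 7.003 in Tcf4 cKO. By these means, without regard to width, the 3 starts lay above most regions. The difference of these means was -0.51 log2 units at the Sox9 start, -0.22 at Sox8 and -0.42 at Sox10, beside a median of -0.10 over all 32120 regions. None of the 3 start regions passed limma on the fold enrichment, with adjusted p of 0.9996 at Sox9, 0.971 at Sox8 and 0.631 at Sox10.

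The repressive mark H3K27me3, which Polycomb complexes place at silent developmental genes, differed at the start of Sox9. A broad peak covered it in both Tcf4 cKO libraries, with 4082 bp and 1725 bp within 5 kb of the gene body and fold enrichments of 2.24 and 2.34. These are weak peaks, with a -log10 q of 2.07 and 2.0 where the weakest in the lists are near 1. Neither WT library had an H3K27me3 peak there, so the covered length was 0 bp in each. Among 21728 protein-coding genes, 1.48% had H3K27me3 within 1 kb of the start in each Tcf4 cKO library and in no WT library.
At Sox10 the peak lay in the first part of the gene body, with a covered length of 0 and 417 bp in WT and 2797 and 2053 bp in Tcf4 cKO. The mean was 208.5 ± 295 bp in WT and 2425 ± 526 bp in Tcf4 cKO (SD, n = 2). The -log10 q was 1.36 in WT replicate 2 and 2.14 and 1.30 in Tcf4 cKO, so a WT peak just under the threshold cannot be told from none. No library had H3K27me3 within 20 kb of the Sox8 body.
In limma the Sox9 region was 0.81 log2 units higher in Tcf4 cKO (SE 0.083, adjusted p = 0.0176), and the Sox10 region gave a difference of 0.32 (SE 0.380, adjusted p = 0.801). Both WT values at Sox9 were set to the lowest fold enrichment of their library for want of a peak, which leaves little spread within WT. The adjusted p was 0.0774 with the replicate number as a block, a fit under which no H3K27me3 region of the genome passed. Without WT replicate 1 or 2 the limma adjusted p was 0.158 and 0.170, and without a Tcf4 cKO library the region has a peak in 1 library and is not fitted.

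Active marks were sparse at the starts. H3K27ac, found at active promoters and enhancers, lay within 1 kb of the Sox9 start in WT replicates 1 and 2 and Tcf4 cKO replicate 1, with fold enrichments of 3.01, 3.54 and 3.64, and not in Tcf4 cKO replicate 2. No library had H3K27ac within 1 kb of the Sox8 or Sox10 start. H3K4me1, a mark of enhancers, lay within 1 kb of the Sox8 start in Tcf4 cKO replicate 2 (2.67) and of the Sox10 start in WT replicate 2 (2.43), each in 1 library of 4.
Tcf4-tag replicates 1 and 2 each had a peak near the Sox9 start, with fold enrichments of 3.94 and 4.57, but these peaks did not overlap each other. Counted from the start along transcription, the first ran from -686 to 190 bp and the second from 422 to 740 bp. At the Sox10 start both replicates had overlapping peaks of 2.90 and 2.88, and the Sox8 promoter had no Tcf4 peak in either replicate.

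Further from the start, 3 regions of the Sox9 window rose in Tcf4 cKO. No SoxE region passed as lower in this fit, though a region 158.3 kb downstream of Sox10 did so with the replicate number as a block (limma adjusted p = 0.0356), with either Tcf4 cKO library left out and with the -log10 p as the measure (limma adjusted p = 0.00584). In limma over all 32120 regions, 0.738% were higher and 1.05% lower in Tcf4 cKO at an adjusted p under 0.05. On the fold enrichment none of the 3 lay near Sox8 or Sox10. With the -log10 p, chosen after seeing the data, regions 8.9 kb downstream of Sox8 and 182.2 kb downstream of Sox10 (at Triobp) also passed as higher. Their limma adjusted p was 0.00278 and 0.0231, where 1159 of all regions passed as higher. Across regions the -log10 p followed the authors' means more closely than the fold enrichment did. At an unadjusted p under 0.05 on the fold enrichment, 9 SoxE regions were higher and 3 lower. Together these were 14.8% of the 81, where 14.3% of all regions had such a p.
The region 280.3 kb upstream of Sox9 (chr11:112501635-112502243, distal intergenic, assigned to the gene BC006965) had fold enrichments of 4.27 and 5.74 in WT and 8.99 and 10.1 in Tcf4 cKO. Both Tcf4 cKO libraries lay above both WT libraries, which 2 against 2 libraries reach at an exact permutation p of 0.33. The difference was 1.05 log2 units (SE 0.175, limma adjusted p = 0.0257), and the authors' means were 4.60 in WT and 6.18 in Tcf4 cKO.
The region 201.2 kb downstream (chr11:112983208-112983651, distal intergenic) had no peak in either WT library and fold enrichments of 6.38 and 5.64 in Tcf4 cKO. Its difference was 2.09 log2 units (SE 0.361, limma adjusted p = 0.0289), and the means were 3.55 and 5.28. The neighbouring region 207.0 kb downstream (chr11:112988926-112989587, distal intergenic) likewise had no WT peak and values of 5.90 and 7.19 in Tcf4 cKO. It differed by 2.21 log2 units (SE 0.351, limma adjusted p = 0.0225), with means of 3.49 and 5.76. For the downstream pair the WT values are the lowest fold enrichment of each list, so the size of the difference depends on that choice, and neither region is fitted without a Tcf4 cKO library.
These calls rested on both WT libraries, while the differences stayed about as large. Without WT replicate 1 the adjusted p of the 3 regions in limma was 0.312, 0.257 and 0.209, and without WT replicate 2 it was 0.105, 0.162 and 0.113, where the lone WT sample is taken to vary like the others. The differences in limma were 0.88, 2.25 and 2.37 without WT replicate 1 and 1.17, 2.20 and 2.33 without WT replicate 2. With regions lacking a peak set to a fold enrichment of 1 the limma adjusted p was 0.0620, 0.0779 and 0.0651. In limma 0 of the consensus regions of the genome passed in either direction under this setting, with 4544 at an unadjusted p under 0.05, or without WT replicate 1, with 3245. At a stricter peak threshold, a -log10 q of at least 5, the upstream region gave an adjusted p of 0.272 and the downstream pair 0.0168 each. With the -log10 p of the peak in place of the fold enrichment the limma adjusted p was 0.00166, 0.00159 and 0.00104.

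**Figure D2:**
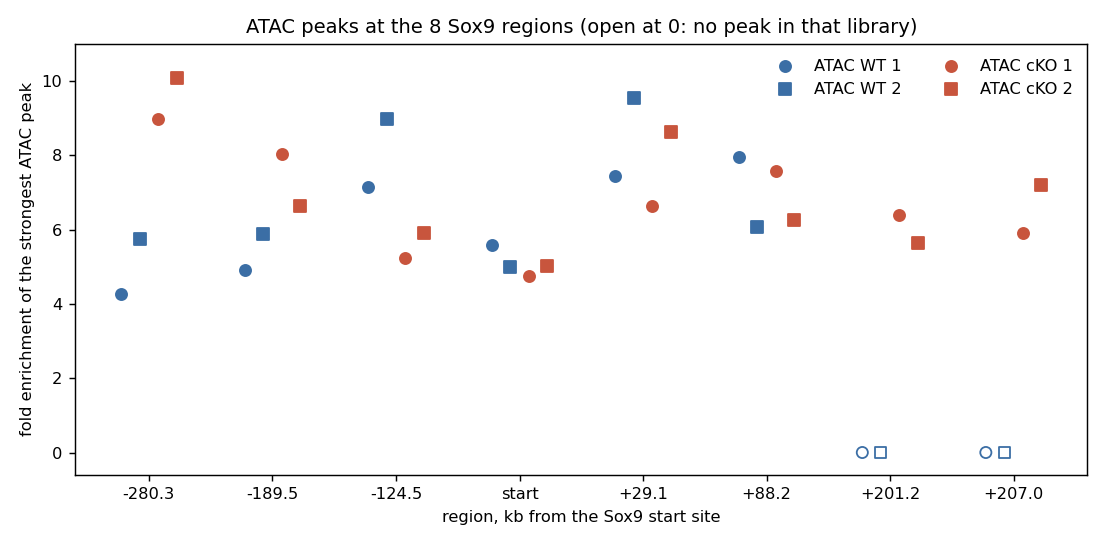
Fold enrichment of the strongest ATAC peak at the 8 Sox9 regions in each library, ordered by kb from the Sox9 start site. Circles and squares are replicates 1 and 2, blue is WT and red Tcf4 cKO, and open symbols at 0 mark a library without a peak. The region 280.3 kb upstream has Tcf4 cKO values of 8.99 and 10.1 above WT values of 4.27 and 5.74, and the downstream pair has peaks in Tcf4 cKO alone.

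The downstream pair was also the whole of the SoxE regions with an ATAC peak in each Tcf4 cKO library and none in WT, 2 of 81, where 0.56% of all regions had this pattern. No SoxE region had the reverse pattern, held by 1.02% of all regions.
Of the 8 Sox9 regions, 6 had a mean over 0.5 log2 units higher in Tcf4 cKO, 1 a mean over 0.5 lower, which was the promoter, and 1 lay in between. Over all consensus regions 8.38% were over 0.5 higher and 12.6% over 0.5 lower. The median difference of means was 0.70 in the Sox9 window, -0.02 in the Sox8 window and -0.12 in the Sox10 window.
The other regions of higher mean lay 189.5 kb upstream and 29.1 and 88.2 kb downstream, with differences of 0.57, 0.75 and 0.64. Their fold enrichments did not bear out a common direction. At 189.5 kb upstream they were 4.92 and 5.88 in WT and 8.05 and 6.64 in Tcf4 cKO (limma adjusted p = 0.197). At 124.5 kb upstream (chr11:112657453-112658068), the region in between, the measures ran opposite ways. Its means were 5.37 in WT and 5.77 in Tcf4 cKO, while its fold enrichments of 7.14 and 8.97 in WT lay above those of 5.23 and 5.91 in Tcf4 cKO (limma difference -0.44, unadjusted p = 0.0307, adjusted p = 0.289). At 29.1 kb downstream they were 7.44 and 9.55 in WT and 6.64 and 8.62 in Tcf4 cKO (limma adjusted p = 0.913), and at 88.2 kb downstream 7.96 and 6.07 against 7.59 and 6.25 (limma adjusted p = 0.913). The region 29.1 kb downstream carried H3K4me1 in all 4 libraries, from 4.50 to 6.55. The region 88.2 kb downstream carried both H3K4me1, from 4.25 to 4.70, and H3K27ac in all 4 libraries, with 5.63 and 5.02 in WT and 4.24 and 4.43 in Tcf4 cKO. For the downstream pair, H3K4me1 was found in WT replicate 1 and both Tcf4 cKO libraries at 201.2 kb and in WT replicate 1 and Tcf4 cKO replicate 2 at 207.0 kb, and no library had H3K27ac at either.

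By number, the Sox9 window held more ATAC peaks in each Tcf4 cKO than in each WT library. The peaks come from the same lists as the values above, those of the downstream pair among them. WT replicates 1 and 2 held 13 and 16 peaks within 300 kb of the Sox9 body and Tcf4 cKO replicates 1 and 2 held 25 and 22, though WT replicate 2 had the most peaks of the 4 libraries over the genome, 72308. The ratio of the summed counts was 1.62, above that of 99.4% of the windows of 21728 protein-coding genes. More peaks in each Tcf4 cKO than in each WT library were found in 2.87% of these windows and fewer in 12.6%. Windows with few peaks vary more, and windows of neighbouring genes overlap.
The Sox10 window had 56 and 59 peaks in WT and 47 and 49 in Tcf4 cKO, with a ratio of 0.835 that was above that of 13.3% of windows. The Sox8 window had 53 and 56 in WT and 63 and 54 in Tcf4 cKO, and the genotypes overlapped.
H3K4me1 peaks in the Sox9 window numbered 17 and 19 in WT and 31 and 20 in Tcf4 cKO, but both Tcf4 cKO libraries had more H3K4me1 peaks over the whole genome, 72790 and 65049 against 51510 and 59526. H3K27ac peaks there numbered 8 and 4 in WT and 3 and 6 in Tcf4 cKO.

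**Figure D3:**
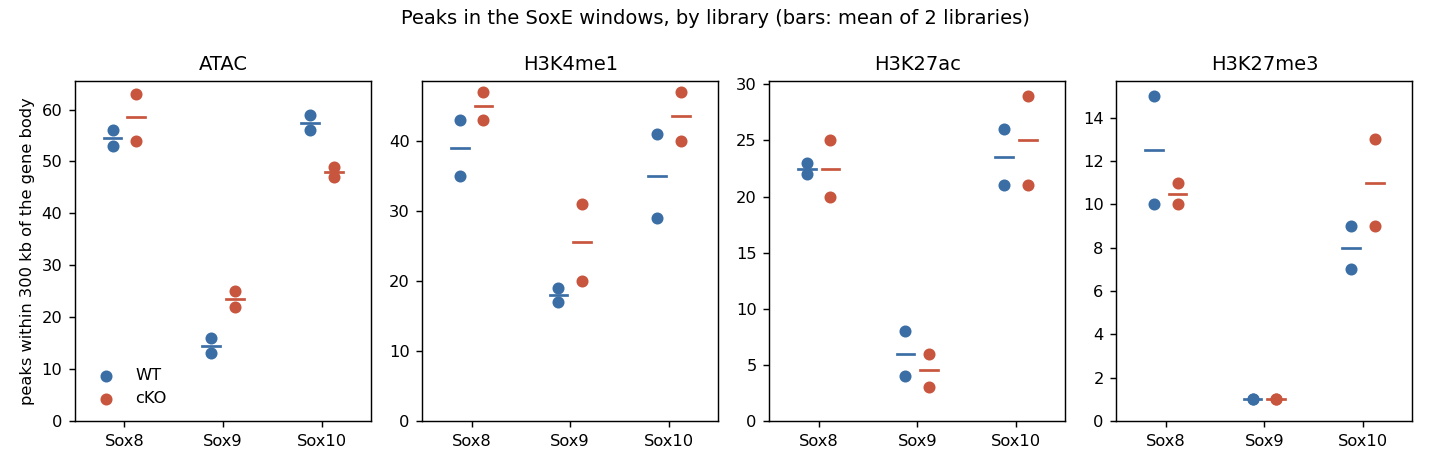
Number of peaks within 300 kb of each SoxE gene body for the 4 chromatin assays. Each point is a library, blue for WT and red for Tcf4 cKO, and short bars are the means of 2 libraries. ATAC peaks near Sox9 number 13 and 16 in WT and 25 and 22 in Tcf4 cKO, while near Sox10 they number 56 and 59 against 47 and 49.

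The regions assigned to Sox8 differed little in mean accessibility, apart from a region 8.9 kb downstream of the start. Its promoter sequence from RefSeq (GRCm38.p6) is shown because it carries a TTGGCA core, in capitals, which 12.3% of 32851 RefSeq promoters held in the 250 bases before the start. The table of RefSeq promoters was matched for 1 of the 3 genes, Sox8.
Sox8 promoter (chr17:25570687-25570936, minus strand): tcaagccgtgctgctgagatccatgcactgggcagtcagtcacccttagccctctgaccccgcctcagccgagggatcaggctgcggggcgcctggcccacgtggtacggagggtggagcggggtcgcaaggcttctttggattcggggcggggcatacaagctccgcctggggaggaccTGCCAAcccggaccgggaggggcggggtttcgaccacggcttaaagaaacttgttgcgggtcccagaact
The region 8.9 kb downstream (chr17:25561359-25562124), past the end of the gene, had no peak in WT replicate 1, a fold enrichment of 2.84 in WT replicate 2 and 4.01 and 3.84 in Tcf4 cKO. The difference was 1.35 log2 units (SE 0.407, limma adjusted p = 0.187), and the means were 5.68 in WT and 6.90 in Tcf4 cKO. The limma test over all regions was thus not passed. At the stricter peak threshold the limma adjusted p was 0.0198, and with the -log10 p as the measure 0.00278. It carried no H3K4me1, H3K27ac, H3K27me3 or Tcf4 peak.
The region 14.1 kb downstream (chr17:25555885-25557353) was bound by Tcf4 in both replicates, with fold enrichments of 4.04 and 5.70, and carried H3K4me1 and H3K27ac in all 4 libraries. Its ATAC values of 7.14 and 6.18 in WT and 6.31 and 6.31 in Tcf4 cKO overlapped, and the means were 8.31 and 8.04. The region 31.3 kb downstream (chr17:25538877-25539959) had values of 6.88 and 11.2 in WT and 7.83 and 8.39 in Tcf4 cKO, with a Tcf4 peak in replicate 1 alone.

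In the window of Sox8 the largest difference of means, -1.37 log2 units, lay at a region assigned to another gene, and the region 8.9 kb downstream, with 1.22, came next. Of the Sox10 regions none is assigned to Sox10. Near Sox8, the distal region 195.5 kb upstream (chr17:25765838-25766549, assigned to Ciao3) had means of 6.58 in WT and 5.21 in Tcf4 cKO and ATAC fold enrichments of 6.55 and 9.0 in WT and 5.73 and 5.24 in Tcf4 cKO. All WT values lay above all Tcf4 cKO values, which 2 against 2 libraries reach at an exact permutation p of 0.33. The difference of -0.40 log2 units did not pass limma (adjusted p = 0.350). This region held the strongest reproducible Tcf4 peaks among the named regions, 6.03 and 6.94.
A region in an intron of Lmf1 lay 38.3 kb upstream of Sox8 (chr17:25608391-25609513) and had means of 7.42 and 6.84. Its fold enrichments were 8.49 and 7.78 in WT and 5.58 and 6.63 in Tcf4 cKO (limma adjusted p = 0.489). A distal region 92.8 kb upstream (chr17:25662945-25664078, also assigned to Lmf1) had means of 8.89 and 8.17, but its fold enrichments of 8.65 and 8.82 in WT and 7.54 and 9.06 in Tcf4 cKO overlapped. Tcf4 covered 98.0% of the intron region and 91.2% of the distal one. The opposite direction was seen 172.6 kb downstream (chr17:25397706-25398368, in a UTR of the calcium channel gene Cacna1h), with 4.51 and 3.77 in WT and 5.59 and 5.41 in Tcf4 cKO (limma adjusted p = 0.329, and 0.0168 at the stricter peak threshold).

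Near Sox10, the region 61.8 kb downstream (chr15:79103249-79103699, distal, assigned to Micall1) had ATAC fold enrichments of 6.61 and 6.19 in WT, no peak in Tcf4 cKO replicate 1 and 4.52 in Tcf4 cKO replicate 2. The means were 6.17 and 4.78, and the limma difference of -1.16 log2 units (SE 0.477) had an adjusted p of 0.339. The region 158.3 kb downstream (chr15:79006664-79007263, distal, assigned to Mir6956) had 9.44 and 11.5 in WT, no peak in Tcf4 cKO replicate 1 and 5.24 in replicate 2, with means of 5.99 and 5.17. Its limma difference was -1.76 (SE 0.538, adjusted p = 0.234). With the replicate number as a block this was the 1 SoxE region that passed as lower in limma, with an adjusted p of 0.0356. It also passed without Tcf4 cKO replicate 1 (limma adjusted p = 0.0123), and both regions passed without replicate 2 (limma adjusted p = 0.00352 at 61.8 kb), the fit that drops the Tcf4 cKO library with a peak. Neither region had a Tcf4 peak.
A region 37.0 kb upstream of Sox10 (chr15:79201368-79203152, in an exon of Gm10863) had means of 9.19 and 8.51 and was covered over 99.4% by reproducible Tcf4, with peaks of 4.28 and 4.92. Its ATAC fold enrichments ran the other way, with 5.99 and 5.52 in WT and 6.20 and 6.90 in Tcf4 cKO (limma adjusted p = 0.536). The Pick1 promoter, 64.3 kb upstream, had means of 7.70 and 7.19, and an intron of Triobp, 202.3 kb downstream, 5.45 and 6.25. At the end of the Sox10 gene a region (chr15:79151617-79153496, assigned to Polr2f) had higher values than the start on both measures. Its means were 9.11 and 8.76 and its fold enrichments between 4.17 and 4.73. The means count reads over 1880 bp here and over 1023 bp at the start, so they are not matched for width. This region had a Tcf4 peak in replicate 1 alone.

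**Figure D4:**
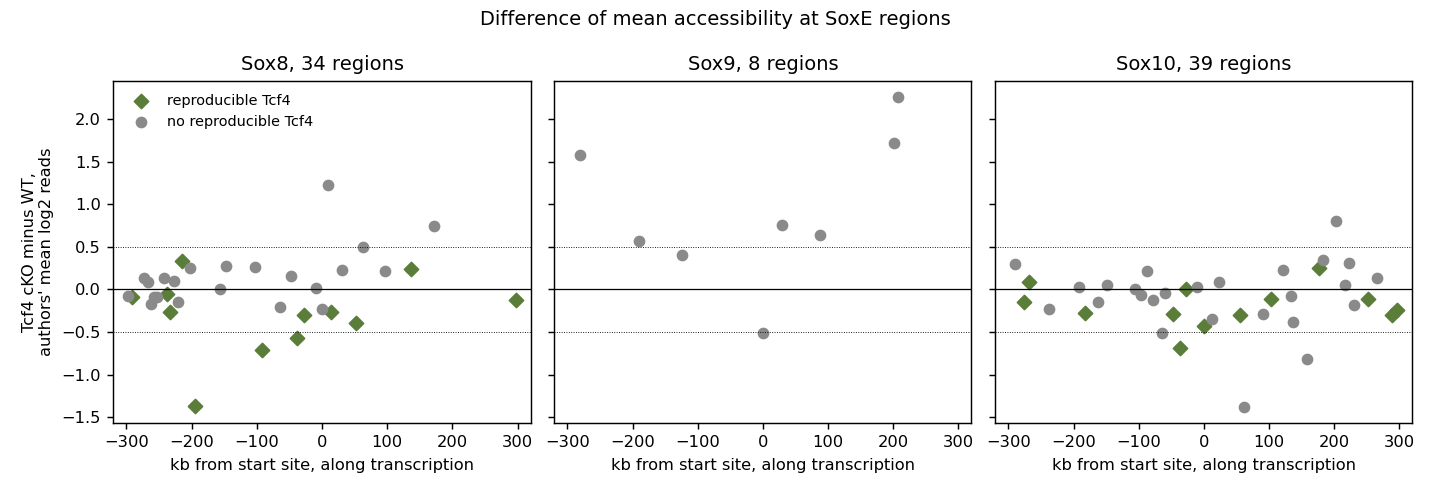
Difference between the authors' mean log2 normalized reads in Tcf4 cKO and WT at the 81 SoxE regions, by kb from the start site along transcription. Green diamonds are regions with reproducible Tcf4, grey circles are the others, and dotted lines mark differences of 0.5 in either direction. All 9 regions over 0.5 higher lack reproducible Tcf4, and 6 of them lie in the Sox9 window.

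Reproducible Tcf4 was found at consensus regions of the Sox8 and Sox10 windows and at none of the Sox9 window. The Sox9 promoter had a peak in each replicate, 3.94 and 4.57, but these did not overlap each other and so did not count. A region was taken as held by Tcf4 when Tcf4 regions merged from overlapping peaks of both replicates covered at least 30% of it. This was the case for 12 of 34 Sox8 regions (35.3%), 13 of 39 Sox10 regions (33.3%) and 0 of 8 Sox9 regions, against 36.3% of all regions. The Sox9 window held a single reproducible Tcf4 region, 275.1 kb upstream and outside the consensus regions, with fold enrichments of 4.88 and 5.60. Near Sox10, reproducible Tcf4 lay at the start and 28.0, 36.9 and 47.7 kb upstream, and near Sox8 it lay 14.3 kb downstream and 6.7, 27.2 and 38.3 kb upstream.
Of the 8 SoxE regions with a mean over 0.5 lower in Tcf4 cKO, 4 held Tcf4, and of the 9 with a mean over 0.5 higher, none did. Over all regions these shares were 39.5% and 4.91%, so the SoxE regions had the same order as the rest.

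Counts of histone mark regions in the 3 windows together gave no region past limma for H3K4me1, with 100 tested, or for H3K27ac, with 50 tested. At an unadjusted p under 0.05 there were 6 and 4, against 13.8% of all H3K4me1 regions and 11.3% of all H3K27ac regions. H3K4me1 was present in each Tcf4 cKO library and in no WT library at 12 of 188 merged regions and in the reverse pattern at 4, where 7.51% and 2.64% of all H3K4me1 regions had these patterns. For H3K27ac the counts were 3 and 2 of 84, against 2.53% and 4.23%. Over the consensus regions, H3K27ac in both WT libraries was found at 32 of 81 SoxE regions and 16062 of all 32120, and in both Tcf4 cKO libraries at 33 and 14530.
H3K27me3 was present in Tcf4 cKO alone at 2 of 47 regions and in WT alone at 4, against 5.36% and 4.05% of all. In limma 1 of the 23 H3K27me3 regions tested was higher, at the Sox9 start, and 4 were lower, all in the Sox8 window. Over the genome 8.77% were higher and 6.88% lower, and both genome-wide counts were 0 with the replicate block or without any 1 library. Among the lower regions were those at the starts of Msln and Fbxl16 and one 168.6 kb upstream of Sox8, with WT fold enrichments between 1.52 and 3.14 and no Tcf4 cKO peak. The H3K27me3 length in the Sox10 window was 7.56 and 7.98 kb in WT and 18.0 and 12.7 kb in Tcf4 cKO, and in the Sox8 window 13.5 and 21.1 kb against 14.6 and 11.4 kb. Over the genome the mark covered 21.1 and 23.4 Mb in WT and 24.9 and 21.5 Mb in Tcf4 cKO. Of the 8 H3K27me3 regions tested by limma in the Sox10 window, 0 had an unadjusted p under 0.05.

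Footprints of the SoxE motifs barely differed between genotypes. The authors scored, in 1 merged alignment per genotype, how far each motif site was protected from the transposase, so the values have no replicate error. The SOX10 motif had a mean score of 0.238 in WT and 0.237 in Tcf4 cKO in its first version, and 0.237 and 0.235 in its second. The SOX8 motif had 0.201 and 0.199 in its first version and 0.214 and 0.213 in its second, and the SOX9 motif 0.218 and 0.216. Centred on the median of all 1205 motifs, the log2 ratios of Tcf4 cKO to WT ran from -0.013 for the first SOX8 version to 0.00035 for the first SOX10 version, within the SD of 0.0358 over all motifs. Their places among all motifs, counted from the lowest ratio, ran from the percentile 34.5 to 50.6. The 25 other motifs with SOX in the name lay between -0.024 and 0.023. The share of SOX10 sites called bound was 8.96% in WT and 8.99% in Tcf4 cKO for the first version, and that of SOX9 sites 7.45% and 7.37%. SoxE motifs resemble each other and those of other SOX factors, so a footprint does not name the protein.

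The genes that act with the SoxE factors were described by their ATAC regions. Of 51 regions at 8 partners and upstream factors, such as Sox5, Sox6 and Olig2, 5 had a mean over 0.5 higher and 10 over 0.5 lower in Tcf4 cKO, with a median difference of -0.19. None passed limma, which 0.624% of 24202 regions of all protein-coding genes did as higher and 0.868% as lower. At an unadjusted p under 0.05 there were 8, against 12.1% of those regions. The largest difference was at Zfp488, an oligodendrocyte factor, with means of 7.41 and 5.94 at a Tcf4-held region (limma adjusted p = 0.387). Of 22 regions at oligodendrocyte-lineage genes known as Sox10 targets or markers, 1 was over 0.5 higher and 6 over 0.5 lower, with a median of -0.26. None passed limma, and 3 had an unadjusted p under 0.05. At Myrf, which drives myelination, the means were 6.81 and 5.79 (limma adjusted p = 0.323).
Of 50 regions at 13 astrocyte genes, the Sox9 promoter among them, 15 were over 0.5 higher and 6 over 0.5 lower, with a median of 0.19. In limma 2 passed as higher and none as lower, where 0.624% and 0.868% of the regions of all protein-coding genes did. At an unadjusted p under 0.05 there were 10, against 12.1% of those regions. A region of the glutamate transporter gene Slc1a3 had means of 3.98 and 6.59 (limma difference 2.14, adjusted p = 0.0249). Another Slc1a3 region went the opposite way, with means of 5.76 and 4.38 (limma adjusted p = 0.197). The other region to pass lay at Nfia, with means of 4.13 and 5.81 (limma difference 2.23, adjusted p = 0.0188). A further Nfia region was lower, with means of 5.96 and 5.32 (limma adjusted p = 0.236). At Aldh1l1, an astrocyte enzyme, means over 0.5 apart also ran both ways, with the largest gain from 5.04 to 7.46 (limma adjusted p = 0.132) and the largest loss from 7.16 to 6.43 (limma adjusted p = 0.341). At Slc1a3, Nfia and Aldh1l1, more regions were over 0.5 higher than over 0.5 lower. Of the regions of all protein-coding genes, 7.19% were over 0.5 higher and 10.5% over 0.5 lower.
Regions of markers of other cell types differed as well, by their means: 4 of 4 microglia regions and 5 of 12 interneuron regions were over 0.5 lower, 3 of 13 endothelial regions over 0.5 higher, and of 8 projection neuron regions 2 were higher and 2 lower. A region of Dlx2, an interneuron lineage factor, passed limma as lower (difference -0.73, adjusted p = 0.0358), the 1 region of these 4 lists to pass. A promoter ATAC peak in both WT libraries was found for 6 of 8 interneuron genes, 11 of 13 astrocyte genes, 5 of 13 oligodendrocyte genes, 2 of 5 microglia genes, 2 of 5 endothelial genes and 1 of 5 projection neuron genes. In both Tcf4 cKO libraries such a peak was found for 3 interneuron, 11 astrocyte, 6 oligodendrocyte, 2 microglia, 2 endothelial and 0 projection neuron genes. Among all 21728 protein-coding genes these counts were 13663 for WT and 13457 for Tcf4 cKO. The part of cell composition in the Sox9 and Sox10 results was not tested. At the start of Tcf4 itself all 4 ATAC libraries had a peak, between 5.56 and 7.45, which does not check the deleted part of the gene.

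By their promoter state over all 18 libraries, Sox9 and Sox10 were among the closer pairs, and Sox8 stood further off. The state was taken as the percentile, within each library, of the strongest peak within 1 kb of the start, and likeness as the mean difference in percentile points. Sox9 and Sox10 differed by 11.1 points, with 428 of 21727 genes (1.97%) nearer to Sox9 than Sox10 was and 267 (1.23%) nearer to Sox10 than Sox9 was, while Sox8 differed from Sox9 by 16.03 and from Sox10 by 15.4. The median gene differed from Sox9 by 20.3, from Sox10 by 22.5 and from Sox8 by 18.6. Nearest to Sox9 were Pou3f2, Sorcs3 and Gabbr2, at 4.76, 5.09 and 5.17 points. All 3 had H3K27me3 in each Tcf4 cKO library and in no WT library, a pattern that the likeness itself counted. Nearest to Sox10 were Hes3, Nrarp and Pcdh1, at 4.86, 4.92 and 4.93 points. Nearest to Sox8 were Ccdc190, Bcor and H2-T24, at 0.994, 1.12 and 1.55 points, which like Sox8 had ATAC peaks in all 4 libraries, H3K4me1 in Tcf4 cKO replicate 2 alone and no other peak. Since the genes were picked on these same libraries, peaks shared with a nearest gene are no separate result. Libraries without a peak at either gene count as equal, which makes genes with few peaks look alike.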

How the data were processed

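The members, gene lists and tests were chosen with earlier results of these data known. The authors trimmed reads, aligned them to mm10 with Bowtie 2, removed duplicates and called peaks per library with MACS2 without a control library. The deposited lists give a fold enrichment (a ratio to the local background), -log10 p-values and -log10 q-values. Read depth was not used, so depth is known only as peak numbers, 15085 to 72790 per library. The authors' consensus table gives mean log2 normalized reads per genotype, and their footprint table a mean score per motif and genotype. Its columns of fold changes, p-values and FDR, and the footprint changes and p-values, hold the authors' comparisons and were not used.

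The strongest overlapping peak (at least 1 bp) gave each region's fold enrichment per library, over consensus regions for ATAC-seq and over peaks merged from the 4 libraries for the marks. Regions with a peak in at least 2 libraries were log2-transformed, with missing peaks set to the library's lowest value, quantile-normalized and fitted with limma 3.58.1 in R 4.3.3 (trend, robust), with Benjamini-Hochberg adjustment over all regions. The step was tested on simulated data drawn from ATAC regions with a peak in all 4 libraries. Such regions differ from those whose missing peaks were set to the lowest value, so the test says little about calls at the latter. Two-sided exact permutation of 2 against 2 libraries cannot go below 0.33, and genotypes without overlap reach no lower. The share of all regions whose genotypes do not overlap is not given here. The p-values measure only the spread between these libraries. Without control libraries the fold enrichment is compressed at wide, strong sites, and its Spearman correlation with the authors' means across regions was 0.27 to 0.47, against 0.85 to 0.88 for the -log10 p. Sequences were read with pysam 0.24.0, genes taken from GENCODE M21. Named were all regions assigned to a member, and those in the windows past limma, present in 1 genotype alone, or with means differing by over 0.5. Same-numbered libraries did not deviate together.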

Additional observations from a re-analysis of the deposited data

How the results depend on the processing

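The counts are small, so most of them moved with the settings. ATAC regions near SoxE genes higher in Tcf4 cKO by limma numbered 3. There were 0 with missing peaks set to a fold enrichment of 1, within 100 kb, or among regions assigned to a SoxE gene, 1 with a peak in all 4 libraries, 0 to 1 with a library left out, and 5 with the -log10 p as the measure, an alternative chosen after seeing the data. Lower ATAC regions numbered 0, with 0 to 2 when a library was left out and 1 with the -log10 p. With the replicate block there were 3 higher and 1 lower. The block was a check only: deviations of same-numbered libraries correlated by -0.0069 to 0.027 over the 4 assays, so the numbers did not pair the samples. H3K27me3 calls were 1 higher and 4 lower. They were 0 and 0 with the block, with peaks in all 4 or in at least 1 library, with the -log10 p, and with any library left out. They were 0 and 1 at a -log10 q of at least 5, 2 higher with median centring or missing peaks set to 1, and 0 lower within 100 kb. No such call was made for H3K4me1 or H3K27ac under any of the alternatives. Leaving out a library asks for fewer peaks, which raised the presence counts of the marks more than that of ATAC. Regions with a peak in each Tcf4 cKO library and none in WT were 2 for ATAC (4 at a -log10 q of at least 5, 0 within 100 kb or assigned, 2 to 3 with a library left out). They were 12 for H3K4me1 (4 at that threshold, 4 within 100 kb, 19 to 43), 3 for H3K27ac (1 at that threshold, 6 to 15) and 2 for H3K27me3 (0 at that threshold, 1 within 100 kb, 4 to 9). The reverse counts were 0 for ATAC (0 to 2 with a library left out), 4 for H3K4me1 (1 at that threshold, 0 within 100 kb, 5 to 31), 2 for H3K27ac (1 within 100 kb, 3 to 12) and 4 for H3K27me3 (1 at that threshold, 0 within 100 kb, 4 to 12).

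Differences of the authors' means over 0.5 higher were 9, with 4 over 1 log2 unit, 3 within 100 kb and 1 assigned. Lower ones were 8, with 5 after centring on the median of all regions, 2 over 1 log2 unit and 1 assigned. Regions with reproducible Tcf4 were 25, with 43 and 20 from replicate 1 or replicate 2 alone, 14 at a -log10 q of at least 5, 11 within 100 kb and 1 assigned. Within 75 bp of region centres, CAGCTG occurred in 13.6% of SoxE regions, CANNTG in 46.9%, TTGGCA in 9.88% and the SOX cores in 21.0%, since shorter windows hold fewer cores. The H3K27me3 lengths were unchanged with 20 kb on each side of the gene body, since no further peak lay there. That was the only setting varied for them. Their peaks had a -log10 q of 1.30 to 2.14, so none reached the threshold of 5 of the stricter alternative setting. The main calls used all listed peaks. The places of the SoxE motifs by the difference of the scores stayed within 5 percentage points. The number of reads behind each peak is not known here, so a missing peak cannot be told from a weak one, and 2 libraries per genotype limit every comparison.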
